A study of Mus musculus with 18 samples.

Results

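The genes described here are the 10 AP-1 and Egr immediate-early factors Fos, Fosb, Fosl1, Fosl2, Jun, Junb, Jund, Egr1, Egr2 and Egr3, taken as a fixed list of names from the 55487 genes in the count files. All 10 were found, and all 10 had enough counts to be among the 13600 genes tested. Their transcripts were measured by RNA sequencing in mouse T23 cells, called adenocarcinoma cells in the series text, which is about prostate cancer. The 18 libraries formed 6 groups of 3: T23 cells with fibroblasts, enzalutamide and isoliquiritigenin, T23 cells with fibroblasts and enzalutamide, T23 cells with enzalutamide, T23 cells with Sparc-deficient fibroblasts, T23 cells with wild-type fibroblasts, and T23 cells alone. Enzalutamide is an antagonist of the androgen receptor, isoliquiritigenin is a chalcone found in licorice, and Sparc encodes a secreted protein of the extracellular matrix.

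The labels give neither a dose nor a time for either compound, and they do not say how the cells were co-cultured or whether fibroblast RNA entered the libraries. Fibroblasts of the enzalutamide groups are described as human, while the titles of these libraries carry the same fibroblast name as those of the wild-type co-cultures. Replicates are not said to be separate cultures, so p-values measure the spread between these libraries, which may be technical. Sparc itself ran from 2586 to 3208 counts per M counts of the scaled library (normalised CPM) over the 18 libraries, so its level did not check the fibroblast genotype. In T23 cells alone the libraries already held mesenchymal transcripts: 10 of 13 fibroblast markers were at 10 CPM or more in every library, while 10 of 12 epithelial markers, Epcam, Cdh1 and Krt8 among them, stayed under 1 CPM in every library. Fewer cells of a type and less RNA per cell cannot be told apart in such bulk libraries. Library totals ran from 16.1 to 26.7 M counts. Replicate 2 of enzalutamide without fibroblasts stood apart, with 26.4% of its counts on 1 ribosomal RNA gene against 0.138% or less in the others. Its effect is given beside some of the results it changes.

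AP-1 is a family of dimers, built from Fos and Jun proteins that join through a leucine zipper and contact DNA with a basic region. Egr proteins bind GC-rich DNA through zinc fingers. Immediate-early genes are those that cells transcribe within minutes of a growth factor, cytokine or stress signal without making new protein first, mainly through ERK and other MAP kinases, serum response factor and CREB. In human prostate cancer, AP-1 subunits are known to interact with androgen receptor signalling, and EGR1 is known to be abundant.

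The DNA-contacting basic region is what lets different Fos and Jun proteins recognise the same site. The stretch of 33 coding bases for this region is shown for the 7 AP-1 members, read 5′ to 3′ from GENCODE M21 transcripts, with capitals for the 16 bases that all 7 share.

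Fos: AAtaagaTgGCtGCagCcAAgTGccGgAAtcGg
Fosb: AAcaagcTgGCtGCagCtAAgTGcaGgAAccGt
Fosl1: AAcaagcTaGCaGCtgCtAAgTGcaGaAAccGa
Fosl2: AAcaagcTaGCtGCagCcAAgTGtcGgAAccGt
Jun: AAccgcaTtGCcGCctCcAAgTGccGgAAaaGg
Junb: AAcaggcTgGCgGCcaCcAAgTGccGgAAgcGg
Jund: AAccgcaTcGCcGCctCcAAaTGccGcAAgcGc

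Among the Fos members, Fos matched Fosb and Fosl2 at 27 bases each and Fosl1 at 23, and among the Jun members Jun matched Jund at 27 and Junb at 25. Fos and Junb, from different families, still matched at 26 of 33. Alike as these stretches are, no member transcript shared a run of 50 bases with another gene on the same strand, so reads of the members were separable from each other at that length. Antisense overlap differed between members. On the opposite strand, 52.6% of the 50-base runs of Fosl1 were shared with Ccdc85b, 48.3% of those of Jund with Gm11175, 5.83% of those of Jun with Junos and 5.76% of those of Junb with Prdx2. The strand setting of the counting is not given in the sources used here. Reads from the shared runs of these 4 members therefore could not be told apart from those of their antisense partners. Gm11175 had no count in any library, whereas Ccdc85b reached 1252 counts in a library and Prdx2 reached 4487.

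Per kilobase of exon, Fosl2 and Jun were the most abundant members, with means over the 18 libraries of 53.3 and 53 normalised CPM per kb. Fosl2 encodes Fra-2, a Fos-family subunit that lacks the strong activation domain of Fos, and Jun encodes a subunit that can also pair with itself. Junb followed at 38.8, Egr1 at 26.3, Jund at 19.2 and Fosl1 at 5.78 CPM per kb. Egr3 at 1.89, Fos at 1.45, Fosb at 0.851 and Egr2 at 0.484 CPM per kb were the low members. Levels per kb divide by the full exon length. Of this length, 1163 of 2033 bases of Fosl1 and 877 of 1668 bases of Jund overlap an antisense gene. What this did to their levels and to the family shares below was not tested. Egr2 rested on 23 to 66 counts per library, Fos on 26 to 162 and Fosb on 67 to 147, while Fosl2 had at least 5506 counts in every library.

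Spread across conditions also differed between members. Fos, the short-lived subunit for which the family is named, varied the most of the 10, with its highest library 6.33-fold above its lowest. Junb varied 3.02-fold, Egr1 2.78-fold, Egr3 2.67-fold and Egr2 2.35-fold between their extreme libraries. Fosl2 and Jun varied least, 1.3-fold and 1.4-fold. Within groups the mean coefficient of variation was 3.58% for Fosl2 and 16% for Egr2.

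**Figure D1:**
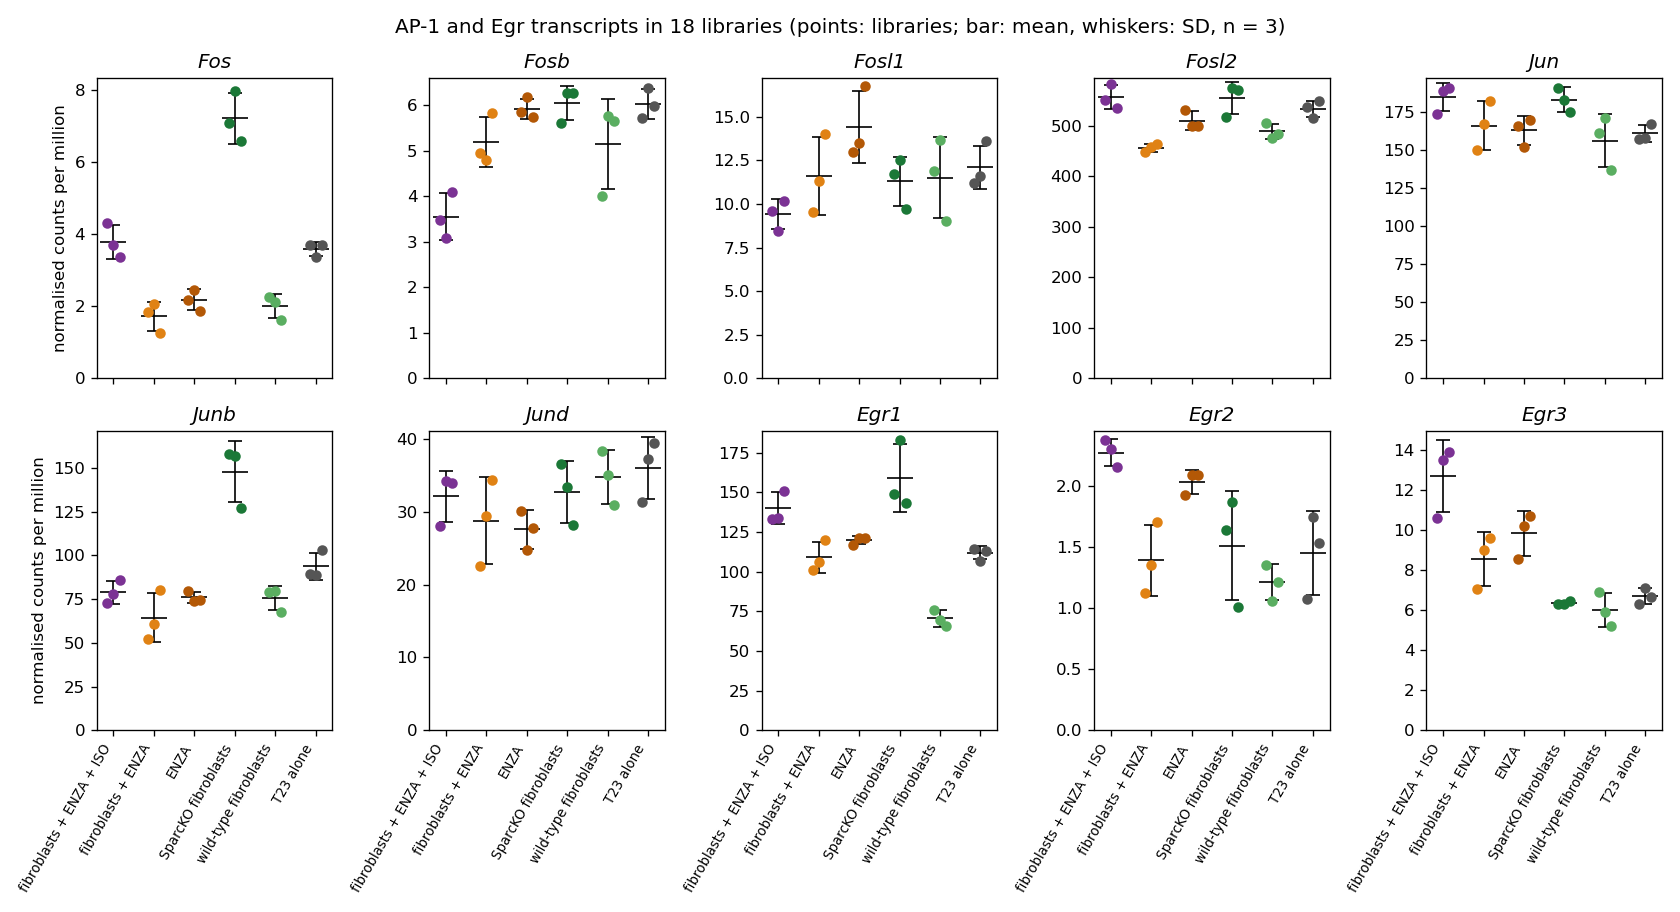
Normalised CPM (vertical axes, each from 0) of the 10 members in every library, by group, with the mean as a bar and SD as whiskers (n = 3). Fos stood between 6.57 and 7.98 CPM with Sparc-deficient fibroblasts and reached at most 4.3 CPM in any other library.

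Fosl2 made up most Fos-family transcript on the per-kilobase scale, from 85.4% of the family with enzalutamide to 89.4% with isoliquiritigenin, enzalutamide and fibroblasts. Fos itself was a small share, 4.58% ± 0.39 with Sparc-deficient fibroblasts, 1.46% ± 0.204 with wild-type fibroblasts and 2.4% ± 0.0806 in T23 cells alone (SD, n = 3 each). The Jun family was more evenly divided. Junb accounted for 45.3% ± 1.68 of it with Sparc-deficient fibroblasts, against 32% ± 0.293 with wild-type fibroblasts and 36.1% ± 1.03 in T23 cells alone. Jun was the largest share in every group but the Sparc-deficient co-culture, where it held 40.8% ± 2.06, against 47.7% ± 1.13 with wild-type fibroblasts. These shares did not overlap between the co-cultures, and the two-sided exact permutation test gave p = 0.1, which is the smallest that 3 libraries against 3 allow.

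**Figure D2:**
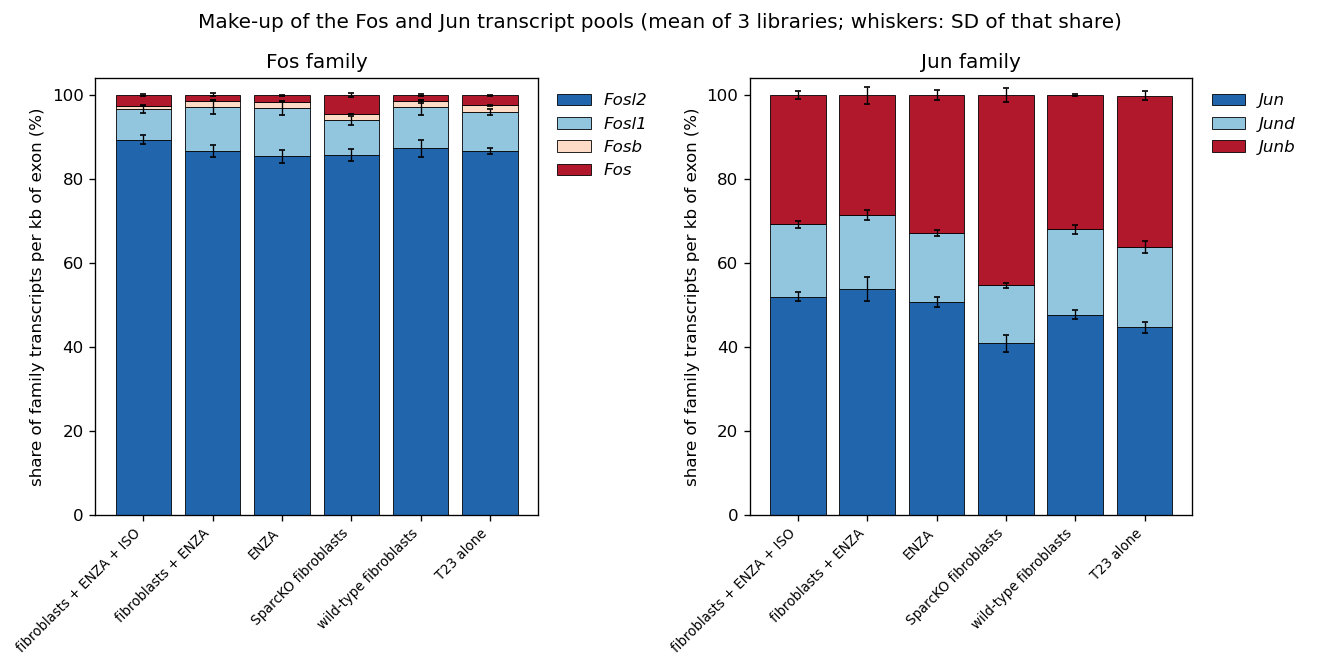
Shares of Fos-family transcripts (left) and Jun-family transcripts (right) per kb of exon, in percent, stacked by member for each of the 6 groups, as means of 3 libraries with the SD of each share as whiskers. Fosl2 filled 85.4% to 89.4% of the Fos family in every group, and Junb was the largest part of the Jun family only with Sparc-deficient fibroblasts (45.3%).

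With Sparc-deficient fibroblasts in place of wild-type ones, Fos, Egr1 and Junb rose, and the abundant members Fosl2 and Jun rose slightly. Of the 10 members 5 passed, all higher, where 11.5% of all genes passed in either direction and 6.72% passed as higher. A gene counted as changed when its adjusted p (edgeR quasi-likelihood test, Benjamini-Hochberg over the 13600 genes) was under 0.05. The comparison asks what loss of Sparc from the fibroblasts does to the transcripts of the culture.

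Fos (ENSMUSG00000021250, chr12:85473890-85477273 on the plus strand) had 7.07, 7.98 and 6.57 normalised CPM with Sparc-deficient fibroblasts, against 2.24, 2.12 and 1.62 with wild-type fibroblasts. All 3 Sparc-deficient libraries lay above every other library of the series. The change was 3.59-fold (log2 1.84 ± 0.16 SE, adjusted p = 3.47e-08 in edgeR). Junb (ENSMUSG00000052837, chr8:84974484-84978718, minus strand), whose protein is a weaker activator than Jun at many AP-1 sites, had 158, 157 and 127 CPM against 79.2, 79.9 and 67.5 CPM with wild-type fibroblasts. The ranges were far apart, and the change was 1.95-fold (log2 0.96 ± 0.11, adjusted p = 1.61e-06).

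Egr1 (ENSMUSG00000038418), the founding Egr zinc-finger factor, had 149, 183 and 143 CPM with Sparc-deficient fibroblasts and 76.1, 69.5 and 65.9 CPM with wild-type fibroblasts. The change was 2.25-fold (log2 1.17 ± 0.08, adjusted p = 1.03e-09 in edgeR), with no overlap. Over all alternatives run, adjusted p stayed at or below 1.1e-06 for Fos, 3.34e-05 for Junb and 4.58e-08 for Egr1.

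The calls of the smaller rises were near the threshold and were lost under several alternatives. Over all alternatives the log2 values stayed between 0.16 and 0.23 for Fosl2 and between 0.15 and 0.30 for Jun. Fosl2 averaged 555 ± 31.6 CPM with Sparc-deficient and 489 ± 15.2 CPM with wild-type fibroblasts (SD, n = 3 each; log2 0.18 ± 0.05, edgeR adjusted p = 0.0269). It missed the threshold without replicate 2 or 3 of the Sparc-deficient co-culture (0.138 and 0.102) or of the wild-type one (0.113 and 0.0646), and with no filter on low counts (0.0565). Jun averaged 183 ± 8.25 against 156 ± 17.4 CPM (log2 0.23 ± 0.07, edgeR adjusted p = 0.0399). Its call was lost without replicate 1 or 2 of the Sparc-deficient co-culture (0.138 and 0.112) and without replicate 1 or 3 of the wild-type one (0.0672 and 0.205).

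The other 5 members did not pass. Fosb, known for a truncated and long-lived protein form, had log2 0.22 ± 0.13, and Fosl1, which encodes Fra-1, had -0.05 ± 0.15. Jund, the Jun member with the steadiest expression in many tissues, had -0.09 ± 0.12. Egr2, known from hindbrain and Schwann cell development, had 0.32 ± 0.25, and Egr3, known from muscle spindle development, had 0.08 ± 0.14. The ranges of both co-cultures overlapped for these 5 and were separate for the 5 called members, where 30.4% of all genes had separate ranges. The share of mitochondrial transcripts was 0.944% to 1.68% with Sparc-deficient and 0.853% to 1.34% with wild-type fibroblasts, and the summed fibroblast markers were 33769 to 35596 CPM against 30998 to 32401 CPM. Their part in the result was not tested.

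Fos and Junb rose together in this comparison, and their promoters are shown for that reason, as the 250 bases before the start that RefSeq gives on GRCm38.p6. Capitals mark TGACG, the core of the CREB site TGACGTCA. The Fos window is chr12:85473640-85473889 on the plus strand and the Junb window chr8:84978749-84978998 on the minus strand.

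Fos: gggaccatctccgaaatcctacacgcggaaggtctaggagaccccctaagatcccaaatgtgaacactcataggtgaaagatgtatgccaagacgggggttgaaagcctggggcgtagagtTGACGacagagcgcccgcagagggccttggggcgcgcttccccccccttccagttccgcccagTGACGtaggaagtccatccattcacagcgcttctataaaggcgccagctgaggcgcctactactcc
Junb: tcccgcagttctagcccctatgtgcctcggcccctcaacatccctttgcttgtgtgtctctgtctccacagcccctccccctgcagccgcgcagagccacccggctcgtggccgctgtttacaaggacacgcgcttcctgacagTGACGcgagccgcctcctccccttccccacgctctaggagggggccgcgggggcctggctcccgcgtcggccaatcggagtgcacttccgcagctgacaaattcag

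In Fos the letters stood at -129 to -125 and at -66 to -62 from the start, and in Junb at -106 to -102. The search covered both strands and also TGANTCA (the AP-1 site), TGACGTCA (which contains TGACG), GCGNGGGCG (an Egr site) and the CArG box of serum response factor. Of 32851 RefSeq promoter windows of 250 bases, 17.8% held TGACG, 1.55% TGACGTCA, 6.75% TGANTCA, 4.7% GCGNGGGCG and 1.47% a CArG box. RefSeq entries matched 7 of the 10 members (Fos, Fosb, Fosl2, Jun, Junb, Jund and Egr2). TGACG was also in the Fosb and Egr2 windows, GCGNGGGCG was in those of Fosb and Fosl2, and the Jun and Jund windows held none of the searched letters. All 250 bases of the Fosl2 window lay in annotated exons. The Jund window ended at position 70697738, while the annotated gene starts at 70698949. Variants of the letters and bases further upstream were not searched. These matches describe sequence and are not evidence of binding.

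Set against T23 cells alone, the Sparc-deficient co-culture again held more Fos, Junb and Egr1. T23 cells alone had 3.70, 3.35 and 3.70 CPM of Fos, 89.6, 89.1 and 103 CPM of Junb and 114, 107 and 113 CPM of Egr1, below every Sparc-deficient library. Fos was 2.01-fold higher (log2 1.00 ± 0.15, edgeR adjusted p = 6.15e-05), Junb 1.57-fold (0.65 ± 0.11, 0.000214) and Egr1 1.42-fold (0.51 ± 0.08, 0.000103). These 3 were the members called of 10, where 9.74% of all genes were called and 6.10% were called higher. Jun, at log2 0.19 ± 0.07, did not pass (adjusted p = 0.108), though it did in a fit of these 2 groups alone (0.00443). Fosb, Fosl1, Fosl2, Jund, Egr2 and Egr3 had log2 values between -0.14 and 0.06 and did not pass. Mitochondrial transcripts were 0.944% to 1.68% of counts with Sparc-deficient fibroblasts and 0.824% to 1.11% in T23 cells alone, and the fibroblast markers summed to 33769 to 35596 against 32023 to 33353 CPM, with no test of their part in the result. This comparison shares its Sparc-deficient libraries with the one above.

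Wild-type co-cultures stood on the other side of T23 cells alone for the same genes. Egr1 fell 1.58-fold (log2 -0.66 ± 0.08, edgeR adjusted p = 0.000276) and Fos 1.79-fold (-0.84 ± 0.18, 0.0259) with wild-type fibroblasts. Both groups' ranges were separate for each gene. So 2 of 10 members were called, both lower, where 0.515% of all genes were called and 0.257% were called lower. The Egr1 call was kept under every alternative, with adjusted p up to 0.00529. The Fos call was lost without replicate 1 or 3 of T23 cells alone (0.156 and 0.153) and without replicate 1, 2 or 3 of the wild-type co-culture (0.0644, 0.112 and 0.123), with log2 values of -0.92 to -0.72 throughout. Junb had log2 -0.31 ± 0.11 with separate ranges and did not pass (adjusted p = 0.263), but passed with no filter on low counts (0.000545) and in a fit of these 2 groups alone (0.00746). Fosb, Fosl1, Fosl2, Jun, Jund, Egr2 and Egr3 had log2 values between -0.26 and -0.04 and did not pass. Since the wild-type libraries also serve in the Sparc comparison, low values in them enter both results.

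**Figure D3:**
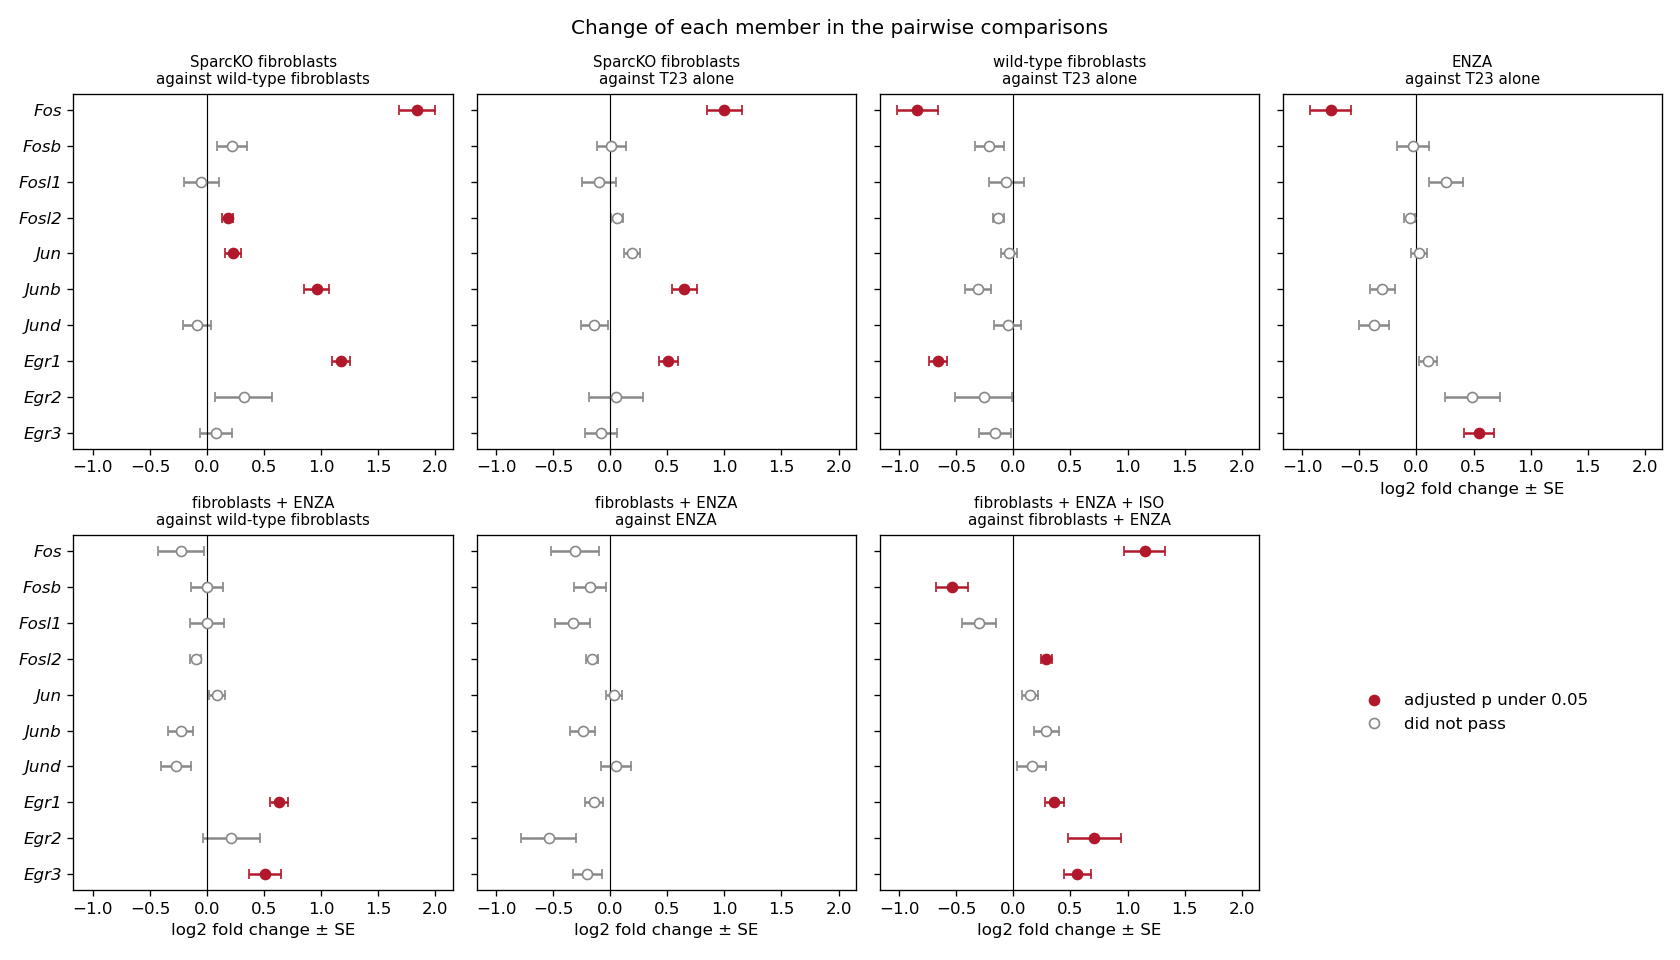
Log2 fold change ± SE of each member in the 7 pairwise comparisons (horizontal axes), each panel headed by its groups; filled points had an edgeR adjusted p under 0.05. Fos reached 1.84 in Sparc-deficient against wild-type co-cultures and 1.15 when isoliquiritigenin was added, and no member passed in fibroblasts with enzalutamide against enzalutamide.

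With enzalutamide and no fibroblasts, Fos fell and Egr3 rose against T23 cells alone. Fos had 2.18, 2.45 and 1.87 CPM with enzalutamide, against 3.70, 3.35 and 3.70 CPM in T23 cells alone. It was 1.69-fold lower (log2 -0.75 ± 0.18, edgeR adjusted p = 0.00768). Egr3 had 8.56, 10.2 and 10.7 CPM with enzalutamide and 6.32, 7.12 and 6.66 CPM in T23 cells alone, a 1.46-fold rise (log2 0.55 ± 0.13, adjusted p = 0.00903). Neither gene's ranges overlapped.

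These were 2 of 10 members called, where 12.0% of all genes were called. Without the enzalutamide library rich in ribosomal RNA, Fos had log2 -0.82 (edgeR adjusted p = 0.00829) and Egr3 0.52 (0.0203). Egr1 had 117, 121 and 121 CPM with enzalutamide, each above the 107 to 114 CPM of T23 cells alone, but did not pass (log2 0.10 ± 0.08, adjusted p = 0.458). Separate ranges were found for 6 members, where 29.8% of all genes had them. Junb (-0.30 ± 0.11) and Jund (-0.37 ± 0.13) were lower in all 3 enzalutamide libraries than in any library of T23 cells alone, and missed the threshold with adjusted p of 0.0772 and 0.0598. With enzalutamide replicate 2 left out they were further from it, with log2 -0.28 and -0.31 (0.125 and 0.138). They passed with no filter on low counts (8.05e-05 and 0.000206) and with the numbering of the titles, described further on, as a term (0.0435 and 0.0313). Junb also passed in a fit of these 2 groups alone (0.0351), and Jund with upper-quartile scaling (0.0496) and without replicate 1 of T23 cells alone (0.042). Fosb, Fosl1, Fosl2, Jun and Egr2 had log2 values between -0.06 and 0.49 and did not pass. Mitochondrial transcripts were 1.88% to 4.06% of counts with enzalutamide and 0.824% to 1.11% in T23 cells alone, and summed fibroblast markers were 27713 to 30154 CPM against 32023 to 33353 CPM. Their part in these changes was not tested.

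In fibroblast co-cultures with enzalutamide, Egr1 and Egr3 rose against wild-type co-cultures. Egr1 had 101, 106 and 120 CPM with fibroblasts and enzalutamide and 76.1, 69.5 and 65.9 CPM with wild-type fibroblasts, a 1.54-fold difference with separate ranges (log2 0.63 ± 0.08, edgeR adjusted p = 2.07e-05). Egr3 had 7.05, 9.00 and 9.60 CPM with fibroblasts and enzalutamide, against 6.88, 5.93 and 5.21 CPM with wild-type fibroblasts (log2 0.51 ± 0.14, adjusted p = 0.0216). The ranges were separate, but by a small margin. These 2 members were called of 10, both higher, where 7.18% of all genes were called and 3.70% were called higher. Fos, Fosb, Fosl1, Fosl2, Jun, Junb, Jund and Egr2 had log2 values between -0.27 and 0.21 and did not pass. Of these, Junb (0.0112) and Jund (0.0207) passed with no filter on low counts, and Junb (0.0147) without replicate 3 of fibroblasts with enzalutamide. Mitochondrial transcripts were 1.55% to 2.71% of counts with fibroblasts and enzalutamide and 0.853% to 1.34% with wild-type fibroblasts, and summed fibroblast markers were 27465 to 28888 CPM against 30998 to 32401 CPM. Both measures separated the groups, and their part in the Egr1 and Egr3 changes was not tested.

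Numbering in the titles restarts partway through the series, and replicates 2 and 3 of fibroblasts with enzalutamide fall after the restart together with all isoliquiritigenin libraries. What the restart marks is not stated. That numbering was also run as a term in the fit. Only replicate 1 of fibroblasts with enzalutamide is then set against wild-type co-cultures or against enzalutamide. Egr1 had log2 0.51 and Egr3 0.23 against wild-type co-cultures in that fit. It cannot tell the numbering from differences between replicates. In the isoliquiritigenin comparison the term leaves replicates 2 and 3 of fibroblasts with enzalutamide. The Egr3 call was lost without replicate 2 or 3 of fibroblasts with enzalutamide (edgeR adjusted p of 0.0962 and 0.118). It was also lost without replicate 2 or 3 of the wild-type co-culture (0.0749 and 0.115). The fibroblasts are labelled differently in the 2 groups, as human with enzalutamide and as wild type without it, so the fibroblast source and the drug cannot be told apart here.

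Against enzalutamide without fibroblasts, no member passed in fibroblasts with enzalutamide by edgeR, where 2.08% of all genes did. At an unadjusted p under 0.05 there were 4 members, Fosl1, Fosl2, Junb and Egr2, all with lower means with fibroblasts. DESeq2 called 1, Fosl2 (log2 -0.16, adjusted p = 0.0458), which averaged 456 ± 7.83 CPM with fibroblasts and enzalutamide and 510 ± 18.6 CPM with enzalutamide alone. Fosl2 and Egr2 had separate ranges, 2 members of 10, where 14.9% of all genes had them. Egr2 averaged 1.39 ± 0.29 against 2.03 ± 0.0995 CPM (log2 -0.54 ± 0.24). Junb passed without replicate 3 of fibroblasts with enzalutamide (log2 -0.43, adjusted p = 0.0323) and with no filter on low counts (0.0227). Fos, Fosb, Jun, Jund, Egr1 and Egr3 had log2 values between -0.31 and 0.05.

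The change with enzalutamide in fibroblast co-cultures was set against the change without fibroblasts, as the difference of the 2 responses. The fibroblasts are labelled as human with the drug and as wild type without it. A difference in drug response and one of fibroblast source therefore cannot be told apart here. No member passed in edgeR, where 0.0221% of all genes did. Egr1 came closest, with a change that was 0.53 ± 0.11 higher on the log2 scale in the fibroblast co-cultures (edgeR unadjusted p = 9.47e-05, adjusted p = 0.161). Egr1 was the 1 member with an unadjusted p under 0.05. DESeq2 called Egr1 (adjusted p = 0.0174), as did edgeR without replicate 1 of fibroblasts with enzalutamide (0.0492) and edgeR with no filter on low counts (1.59e-06). It did not pass without enzalutamide replicate 2 (0.0745). With the numbering term, which leaves only replicate 1 of fibroblasts with enzalutamide, the Egr1 difference was log2 0.41. Fos had a difference of 0.53 ± 0.27, and Fosb, Fosl1, Fosl2, Jun, Junb, Jund, Egr2 and Egr3 had differences between -0.28 and 0.10. All 4 groups enter this test, among them the wild-type co-cultures in which Egr1 was lowest.

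With isoliquiritigenin added to fibroblasts and enzalutamide, Fos, Fosl2, Egr1, Egr2 and Egr3 rose and Fosb fell. In all 6 of 10 members were called, where 26.5% of all genes were called. By direction, 12.9% of all genes were called higher and 13.6% lower. Ranges were separate for 6 members, where 40.5% of all genes had separate ranges. The comparison asks what the compound does on top of the antagonist.

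Fos had 4.30, 3.68 and 3.37 CPM with isoliquiritigenin, enzalutamide and fibroblasts, against 1.82, 2.05 and 1.26 CPM with enzalutamide and fibroblasts. The ranges were separate and the change was 2.22-fold (log2 1.15 ± 0.18, edgeR adjusted p = 3.12e-05). Fos with isoliquiritigenin thereby stood near its level in T23 cells alone, with overlapping ranges. Fosb went the other way, with 1.46-fold less transcript (3.55 ± 0.507 against 5.19 ± 0.55 CPM, log2 -0.54 ± 0.14, adjusted p = 0.0057). Fosl2 averaged 556 ± 23.8 CPM with isoliquiritigenin and 456 ± 7.83 CPM without it (log2 0.29 ± 0.05, adjusted p = 0.000269). Fosl1 did not pass (log2 -0.30 ± 0.15, adjusted p = 0.147).

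The 3 Egr members rose together. Egr1 had 133, 134 and 151 CPM with isoliquiritigenin and 101, 106 and 120 CPM without it (log2 0.36 ± 0.08, edgeR adjusted p = 0.00111). Egr3 had 10.6, 13.5 and 13.9 CPM against 7.05, 9.00 and 9.60 CPM (log2 0.56 ± 0.12, adjusted p = 0.00127). In both, the lowest library with isoliquiritigenin lay above the highest without it. Egr2 averaged 2.27 ± 0.111 CPM with isoliquiritigenin and 1.39 ± 0.29 CPM without it, with no overlap (log2 0.71 ± 0.23, adjusted p = 0.0219). The Egr2 call did not survive without replicate 1 or 2 of fibroblasts with enzalutamide (0.113 and 0.0635), without replicate 1 or 2 of the isoliquiritigenin group (0.0655 and 0.0589), or with the numbering term (log2 0.57, 0.107). The other 5 calls were kept with that term, with adjusted p of 0.000203 for Fos, 0.0115 for Fosb, 0.00219 for Fosl2, 0.0122 for Egr1 and 0.0157 for Egr3.

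Of the 7 members with RefSeq windows, Egr2 had a CArG box. The site is shown because serum response factor reads such boxes in immediate-early promoters. It lies at chr10:67537793-67537822 on the plus strand of GRCm38.p6, with the box and the reverse complement of TGACG in capitals.

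Egr2 site: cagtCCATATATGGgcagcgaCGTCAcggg

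From the nearest RefSeq start after it, the box spans -72 to -63 and the second element -55 to -51. No Jun member passed with isoliquiritigenin. Junb had log2 0.29 ± 0.11 and an adjusted p of 0.0523, next to the threshold. Its libraries of fibroblasts with enzalutamide stood at 52.4, 60.9 and 80 CPM, and without the highest, replicate 3, Junb had log2 0.48 and an adjusted p of 0.00121. Junb also passed without replicate 1 of the isoliquiritigenin group (0.0408), without enzalutamide replicate 2 (0.029), with upper-quartile scaling (0.0381), in a fit of these 2 groups alone (0.04) and with no filter on low counts (7.4e-05). With the numbering term it had log2 0.16 and an adjusted p of 0.314. Jun (0.15 ± 0.07) and Jund (0.16 ± 0.13) did not pass, although Jun passed without replicate 3 of fibroblasts with enzalutamide (log2 0.22, adjusted p = 0.0404). Mitochondrial transcripts were 2.8% to 3.77% of counts with isoliquiritigenin against 1.55% to 2.71% without it, and summed fibroblast markers 23153 to 23433 CPM against 27465 to 28888 CPM, and their part in these changes was not tested.

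Ordered by mean level, Fos was lowest in fibroblasts with enzalutamide (1.71 CPM), wild-type co-cultures (1.99) and enzalutamide (2.17), 3 groups whose ranges overlapped. T23 cells alone (3.58) and the isoliquiritigenin group (3.78) formed the next step, also overlapping, and the Sparc-deficient co-culture (7.21) stood above. Egr1 was lowest in wild-type co-cultures (70.5 CPM), with a gap to fibroblasts with enzalutamide (109) and T23 cells alone (112), which overlapped, then enzalutamide (120), isoliquiritigenin (140) and the Sparc-deficient co-culture (159), the last pair overlapping. Egr3 had another order, with 6.01 CPM in wild-type, 6.35 in Sparc-deficient co-cultures and 6.7 in T23 cells alone, and 8.55, 9.83 and 12.7 CPM in the 3 groups with enzalutamide. Each neighbouring pair of Egr3 overlapped. For Fosb, Fosl1, Jun and Jund, every neighbouring pair of groups overlapped as well.

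Other immediate-early genes were called higher more often than lower in the Sparc comparison. Of 30 tested genes of that list, 15 rose and 1 fell with Sparc-deficient against wild-type fibroblasts, and their median log2 change was 0.26, against -0.01 for all genes. Over all genes, 11.5% were called in this comparison. For Sparc-deficient and wild-type co-cultures against T23 cells alone the shares were 9.74% and 0.515%. With enzalutamide against T23 cells alone the share was 12.0%. In fibroblasts with enzalutamide it was 7.18% against wild-type fibroblasts and 2.08% against enzalutamide. With isoliquiritigenin added it was 26.5%. These shares stand beside the counts of every list below. Ccn1, a matrix-associated signalling protein, averaged 974 ± 46.2 CPM with Sparc-deficient and 529 ± 5.38 CPM with wild-type fibroblasts (log2 0.88 ± 0.07, edgeR adjusted p = 3.6e-09). Socs3, an inhibitor of cytokine receptor signalling, averaged 110 ± 4.63 against 58.9 ± 5.46 CPM (log2 0.90 ± 0.07, adjusted p = 3.6e-09). Against T23 cells alone, 10 rose and 1 fell, and Dusp1, a MAP kinase phosphatase, averaged 106 ± 6.93 CPM with Sparc-deficient fibroblasts and 44.4 ± 6.14 CPM in T23 cells alone (log2 1.25 ± 0.07, adjusted p = 1.12e-10). With wild-type fibroblasts against T23 cells alone, 1 rose and 4 fell, among them the nuclear receptor gene Nr4a1 (log2 -0.55 ± 0.10, adjusted p = 0.00847) and the matrix-associated gene Ccn2 (-0.40 ± 0.08, 0.0143). In that comparison 1 rose and 8 fell in DESeq2, and 1 rose and 9 fell in edgeR once the ribosomal RNA-rich library, which is in neither group, was left out of the fit. Leaving it out also gave 17 higher and 1 lower in the Sparc comparison. Sparc-deficient fibroblasts against T23 cells alone then gave 13 higher and 2 lower.

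With enzalutamide, more of these genes fell than rose. Of the 30, 2 rose and 12 fell with enzalutamide against T23 cells alone, where 12.0% of all genes were called (median log2 -0.21, against 0.00 for all genes). Ccn1 fell with log2 -0.59 ± 0.07 (edgeR adjusted p = 2.11e-06) and the stress-response gene Gadd45b with -0.49 ± 0.09 (0.000451). With fibroblasts, 3 rose and 5 fell, Gadd45b (-0.44 ± 0.09, 0.00188) and the Krüppel-like factor gene Klf10 (-0.31 ± 0.06, 0.00194) among the 5. In fibroblasts with enzalutamide against enzalutamide, 1 rose and 5 fell. The 1 that rose was Dusp1 (52.4 ± 2.19 against 33.4 ± 1.75 CPM, log2 0.64 ± 0.08, adjusted p = 0.000171), while Nr4a1 fell (-0.53 ± 0.10, 0.00645). Counts with the numbering term are not given for both comparisons of fibroblasts with enzalutamide, since it leaves only replicate 1 of that group. With isoliquiritigenin the list split evenly, 7 higher and 7 lower, where 26.5% of all genes were called. Zfp36, which encodes an mRNA decay factor, was up by log2 0.92 ± 0.09 (edgeR adjusted p = 9.32e-08) and Gadd45b was down (-0.71 ± 0.09, 2.34e-06).

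AP-1 target genes, a list of 27 tested genes known from other systems, rose in 8 cases and fell in 2 with Sparc-deficient against wild-type fibroblasts (median log2 0.11). Cxcl1, a neutrophil chemokine, averaged 31.6 ± 4.06 CPM with Sparc-deficient and 12.2 ± 0.0532 CPM with wild-type fibroblasts (log2 1.37 ± 0.12, edgeR adjusted p = 3.13e-08). Ptgs2, the inducible prostaglandin synthase, averaged 200 ± 11.1 CPM against 105 ± 10 CPM (log2 0.93 ± 0.07, adjusted p = 1.45e-09). Against T23 cells alone, 9 were called, all higher, with Spp1 (osteopontin) at log2 0.78 ± 0.06 (1.1e-08). With the ribosomal RNA-rich library left out of the fit, 9 rose and 2 fell. With wild-type fibroblasts against T23 cells alone, edgeR called 0 of the 27, with 7 at an unadjusted p under 0.05 and 1 called by DESeq2.

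Under enzalutamide the targets were divided, 4 higher and 4 lower without fibroblasts, 3 higher and 2 lower with them. Of all genes, 12.0% and 7.18% were called in these comparisons. Spp1 rose in both settings (log2 0.49 ± 0.06, edgeR adjusted p = 1.58e-05, and 0.44 ± 0.06, 6.68e-05), as did Nqo1, a quinone reductase (0.52 ± 0.08, 0.000164, and 0.34 ± 0.08, 0.00891). In fibroblasts with enzalutamide against enzalutamide, 2 rose, the matrix protease genes Mmp9 (0.29 ± 0.06, 0.00684) and Mmp3 (0.96 ± 0.22, 0.0223). With enzalutamide replicate 2 left out, the counts against enzalutamide turned to 1 higher and 2 lower. Target counts with the numbering term are not given for fibroblasts with enzalutamide, of which it leaves only replicate 1 in these comparisons. With isoliquiritigenin 7 rose and 12 fell (median log2 -0.21), where 26.5% of all genes were called. The smallest p belonged to Nqo1, at 85.3 ± 4.06 CPM with isoliquiritigenin and 38.3 ± 1.03 CPM without it (log2 1.16 ± 0.08, edgeR adjusted p = 3.06e-10). The metallothionein gene Mt1 followed (0.61 ± 0.06, 1.1e-07). Nqo1 and the metallothioneins are also known as targets of oxidative-stress and metal-responsive factors.

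**Figure D4:**
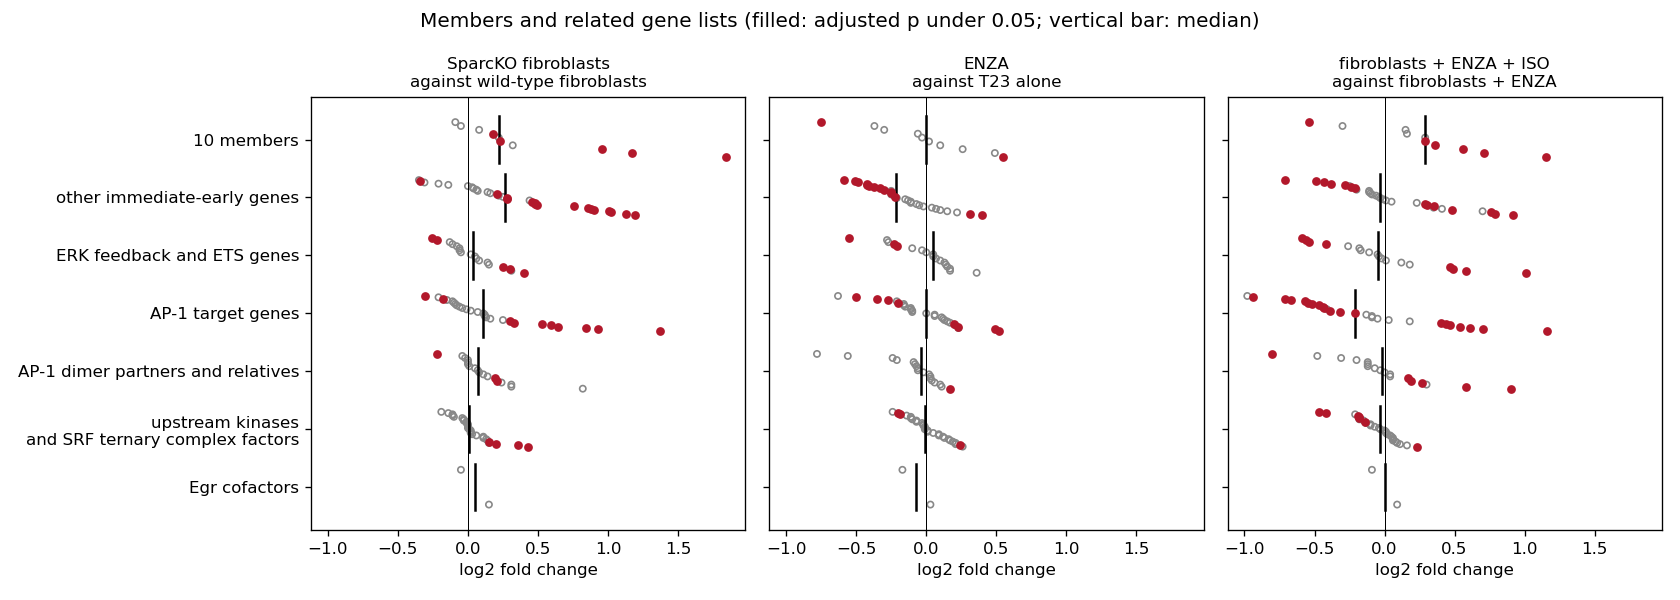
Log2 fold changes (horizontal axes) of the 10 members and of 6 related gene lists in 3 comparisons, a point per tested gene, filled where the edgeR adjusted p was under 0.05, with the list median as a vertical bar. In Sparc-deficient against wild-type co-cultures 15 of 30 other immediate-early genes were called higher and 1 lower, and with enzalutamide 2 were called higher and 12 lower.

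A list of negative-feedback genes of the ERK pathway and some of its ETS factors, which also held Hmga2 and Lif, had 18 tested genes. It gave 3 higher and 2 lower in the Sparc comparison. Dusp6, the cytoplasmic ERK phosphatase, had log2 0.40 ± 0.08 (edgeR adjusted p = 0.00132) and the chromatin protein gene Hmga2 -0.22 ± 0.06 (0.0139). Against T23 cells alone, 2 were called with Sparc-deficient fibroblasts, both lower, Spry2 (-0.38 ± 0.07, 0.000859) and Hmga2 (-0.26 ± 0.06, 0.00437). With wild-type fibroblasts edgeR called 0 of the 18, with 4 at an unadjusted p under 0.05 and 1 by DESeq2. With enzalutamide 3 fell, including Spry1 (-0.55 ± 0.06, 3.64e-06), a Sprouty inhibitor of receptor tyrosine kinase signalling. Without the library rich in ribosomal RNA, 1 gene of the list was called there. In fibroblasts with enzalutamide 2 rose against wild-type fibroblasts, Dusp6 (0.42 ± 0.08, 0.00119) and Phlda1 (0.25 ± 0.07, 0.025), and Spry1 rose against enzalutamide (0.29 ± 0.06, 0.0176). The numbering term cannot check these calls, as it leaves only replicate 1 of fibroblasts with enzalutamide. Without the library rich in ribosomal RNA, 5 genes rose and 1 fell against wild-type fibroblasts. With isoliquiritigenin 4 rose and 4 fell, where 26.5% of all genes were called. Among the lower ones were Errfi1, an inhibitor of the EGF receptor (-0.59 ± 0.06, edgeR adjusted p = 8.07e-08), and Spry1 (-0.56 ± 0.06, 5.33e-07).

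Dimer partners and relatives of AP-1, 18 tested, gave 2 higher and 1 lower with Sparc-deficient against wild-type fibroblasts. The stress-response factor gene Nfe2l1 had log2 0.21 ± 0.05 (edgeR adjusted p = 0.00673) and Atf5 -0.22 ± 0.06 (0.0107). Atf4, the integrated-stress-response factor, rose with enzalutamide without fibroblasts (0.17 ± 0.05, 0.0326) and with them (0.20 ± 0.05, 0.0179). The second Atf4 call cannot be checked with the numbering term, which leaves only replicate 1 of fibroblasts with enzalutamide. Without the library rich in ribosomal RNA, 1 gene rose and 1 fell with enzalutamide against T23 cells alone. Isoliquiritigenin gave 5 higher and 1 lower, Maf up (0.58 ± 0.10, 6.42e-05) and Bach2, a repressor of the same bZIP class, down (-0.80 ± 0.13, 5.82e-05). That is 6 of 18, where 26.5% of all genes were called, and with the numbering term the counts were 3 higher and 1 lower. In fibroblasts with enzalutamide against enzalutamide, edgeR called 0 of the 18, with 2 at an unadjusted p under 0.05, 1 by DESeq2 and 1 without enzalutamide replicate 2. With wild-type fibroblasts against T23 cells alone, edgeR and DESeq2 called 0, with 1 at an unadjusted p under 0.05.

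Upstream kinases, Ras genes and ternary complex factors, 29 tested, gave 4 called genes with Sparc-deficient against wild-type fibroblasts, all higher. In that comparison 11.5% of all genes were called and 6.72% were called higher. Rps6ka1 (log2 0.36 ± 0.09, edgeR adjusted p = 0.00902), which encodes an ERK-activated kinase, and Mapk9 (0.20 ± 0.06, 0.0271), which encodes a JNK, were among the 4. Mapk14, a p38 kinase gene, was the 1 of 29 called with wild-type fibroblasts against T23 cells alone (0.21 ± 0.04, 0.0267). Enzalutamide gave 1 higher and 2 lower without fibroblasts, where 12.0% of all genes were called. Sos1 (0.24 ± 0.07, 0.0277) and Nras (-0.20 ± 0.05, 0.0138) were among them. Without the library rich in ribosomal RNA 0 were called higher, which ends the Sos1 call, and 1 lower. In fibroblasts with enzalutamide the ternary complex factor gene Elk1 rose against wild-type fibroblasts (0.23 ± 0.07, edgeR adjusted p = 0.0412). For fibroblasts with enzalutamide the numbering term leaves replicate 1 alone, so calls under it are not given. Against enzalutamide, edgeR and DESeq2 called 0 of 29, with 3 at an unadjusted p under 0.05. With isoliquiritigenin 1 rose and 6 fell, where 26.5% of all genes were called and 13.6% were called lower. Rps6ka2 (-0.42 ± 0.08, 0.000205), which encodes another ERK-activated kinase, was among the lower ones. With the numbering term, 0 rose and 4 fell with isoliquiritigenin. Nab1 and Nab2, which encode corepressors that bind Egr proteins, were called in no comparison by edgeR or DESeq2, with an unadjusted p under 0.05 for 1 of the 2 in the Sparc comparison and in enzalutamide against T23 cells alone. Their summed level stayed between 161 and 176 CPM in all 18 libraries.

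Over the 18 libraries, the 4 genes outside the members whose log2 level followed Fos most closely were Inhbb (r = 0.930), Masp1 (0.922), Lox (0.919) and Ptgs2 (0.918). Those closest to Egr1 were Nfe2l1 (0.837), Pfkm (0.837), Tiam1 (0.835) and Wdr91 (0.834). Jun was followed by Efemp2 (0.888), Loxl1 (0.882), Zfp358 (0.866) and Dlx2 (0.863), and Fosl1 by Eef1g (0.871), Dagla (0.869), Ybx3 (0.856) and Eef2 (0.840). These coefficients describe 18 libraries that share 6 group means and were the highest of the 13600 genes tested, so they carry no test.

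Members followed each other in different ways between and within groups. Fos and Junb had r = 0.84 over the 18 libraries and -0.22 once each group's mean was removed, and Fos and Fosl2 had 0.78 and 0.11. Junb and Jund had 0.48 over all libraries and 0.88 within groups. Jun paired within groups with Jund (0.84), Junb (0.83) and Fosl1 (0.82). Egr1 had 0.70 with Junb and 0.64 with Fosl1, and Jund had 0.63 with Fosl1 and with Egr2. The coefficients describe n = 18 values with 6 means removed. Fosl1, Jun, Junb and Jund overlap an antisense gene and Egr1 and Egr2 share no such run, and the part of antisense reads was not tested.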

How the data were processed

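The data are 18 files of raw counts per gene deposited by the authors, whole numbers without normalisation. Per the labels' protocols, polyadenylated RNA went into TruSeq Stranded libraries with dUTP in the second strand, sequenced on a NextSeq 550. The submitters' processing notes name the aligner STAR 2.6.1d, the counter featureCounts 2.0, the trimmer cutadapt 2.9, FastQC 0.11.9, bcl2fastq 2.20.0.422, DESeq2 and the build GRCm38. The annotation release, strand setting and handling of reads with several matches are not given in the sources used here.

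Ensembl identifiers were paired with symbols through GENCODE M21, which named 55227 of 55487 genes; the other 260 held 0.00552% of counts. In edgeR 4.0.16 (limma 3.58.1, R 4.3.3), filterByExpr with a minimum count of 10 kept 13600 genes. TMM-scaled counts of all 18 libraries were fitted with a mean per group, which left 12 residual degrees of freedom. The common biological coefficient of variation was 7.03%. Contrasts were tested two-sided by the quasi-likelihood method with Benjamini-Hochberg adjustment over the 13600 genes. The edgeR test of Sparc-deficient against wild-type co-cultures was run on simulated counts of the better-counted genes. Other comparisons and steps were not simulated.

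Normalised CPM are counts per M counts of the TMM-scaled library, given as mean ± SD (n = 3); levels per kb divide by merged exon length. Correlations used log2(normalised CPM + 0.5). Alternatives were DESeq2 1.42.0, upper-quartile scaling, no count filter, a replicate block, the numbering of the titles, the ribosomal RNA gene left out, only the groups compared, and each library left out.

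The members and lists were chosen with earlier results of these data known. All 10 members are named in every comparison, and up to 2 called genes of each list by smallest p, except for a result that is not reported here. The labels do not say what a replicate number shares. In 0 of 15 pairs of groups did every same-number correlation exceed 0.1 (range -0.217 to 0.143). This rule cannot tell whether libraries of the same number shared a culture or handling, so the replicate block was run as an alternative.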

Additional observations from a re-analysis of the deposited data

How the results depend on the processing

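Egr1, Fos and Junb in both Sparc-deficient comparisons, Egr1 in the other comparisons where it was called, Fos and Egr3 with enzalutamide, and Fos, Fosb, Fosl2 and Egr3 with isoliquiritigenin kept direction and call under every alternative run. Of the single-gene values under alternatives, 1045 kept sign and side of the threshold, 26 newly passed, 25 no longer passed, and 54 changed sign without passing either way. No called value changed sign. Leaving out a library gave 3 to 5 members called in Sparc-deficient against wild-type co-cultures, 1 to 2 in wild-type co-cultures against T23 cells alone, 1 to 2 in fibroblasts with enzalutamide against wild-type co-cultures, and 0 to 1 both against enzalutamide and for the difference of responses. With no filter on low counts, 4 members were called with enzalutamide, 4 with fibroblasts and enzalutamide against wild-type co-cultures, 1 against enzalutamide and 1 for the difference. The numbering term gave 4 with enzalutamide. DESeq2 gave 1 against enzalutamide and 1 for the difference. With the replicate block, Jun lost its call in the Sparc comparison (adjusted p = 0.0557), which left 4 members there, and no other member's call changed. The difference in the Fos share of its family was -0.118 percentage points in fibroblasts with enzalutamide against wild-type co-cultures (-0.247 to 0.077 with a library left out) and -0.152 against enzalutamide (-0.281 to 0.0426), and the positive values arose without replicate 3 of fibroblasts with enzalutamide. Over all genes, 70 were called in wild-type co-cultures against T23 cells alone, 11 to 157 with a library left out, 148 in DESeq2, 165 without the filter and 336 with only these groups. Fibroblasts with enzalutamide gave 977 genes against wild-type co-cultures. Against enzalutamide they gave 283, and 56 with only these groups, 541 without the filter and 438 in DESeq2. With the numbering term both comparisons rest on replicate 1 of fibroblasts with enzalutamide, so gene counts under it cannot be set beside these. With only the groups compared, 740 in place of 1636 were called with enzalutamide and 2188 in place of 1325 in Sparc-deficient co-cultures against T23 cells alone. The difference of responses gave 3 genes, 8 in DESeq2, 99 without the filter and 0 with upper-quartile scaling. The cause of these changes was not tested. Depth limits Egr2 most, at 23 to 66 counts per library.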
